A study of Arabidopsis thaliana with 6 samples.

Results

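A set of 184 probe sets, referred to here as progressive fallers, lost signal in 2 consecutive steps when arrested xylem pole pericycle cells of Arabidopsis thaliana roots were moved onto auxin. They were selected on the measured signals themselves, out of 22746 probe sets that are not array controls. On the log2(signal + 5) scale, the mean at 2 h had to be at least 1.2 below the mean at 0 h, and the mean at 6 h at least 1.2 below that at 2 h. Both signals of each later time point had to lie below both signals of the earlier one, and the mean signal at 0 h had to be at least 200. Class III peroxidase, UDP-glycosyltransferase (UGT), glutathione transferase (GST) and aldehyde dehydrogenase genes were left out. Of 189 probe sets that met the conditions on the values, this removed 5: GSTU27, the peroxidase genes AT4G30170, AT4G11290 and AT3G21770, and the UGT gene AT2G31790. Among the 184, 83 probe sets stand for 1 named gene each (82 genes, since AT1G31050 has 2), 4 stand for several genes, and 97 are unnamed here. Genes of the left-out families cannot be found among the unnamed ones. Because the selection used all 6 arrays and all 3 time points, the changes of these genes are described without a test.

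The cells came from seedlings of line J0121, a GAL4-GFP enhancer trap whose fluorescence marks the pericycle at the xylem poles, and were isolated by fluorescence-activated sorting of root protoplasts. The 0 h group was taken at 72 hours after germination from roots grown on 10 µM NPA, an inhibitor of polar auxin transport, with no NAA. The 2 h and 6 h groups had the same time on NPA followed by the synthetic auxin NAA at 10 µM for 2 h or 6 h, and so were 74 and 78 hours old. There were 2 arrays per group, labelled as biological replicates, and the amount of RNA before labelling is described as undetectable. Cells kept off NAA to the later ages were not analysed here, and the effects of NAA and of age cannot be told apart. The marker is a reporter driven by sequence near 1 insertion and not by a defined pericycle promoter. The xylem pole pericycle and stele markers chosen to check the label (8 genes) are all unnamed here, so the identity of the sorted cells was not checked against them. Since RNA was pooled over sorted cells, fewer cells of a type and less RNA per cell cannot be told apart.

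Pericycle cells opposite the xylem poles are quiescent neighbours of the vascular strands that can re-enter the cell cycle in response to auxin, and lateral roots begin from their divisions. Inhibition of auxin transport holds them before that step, and addition of auxin releases them together. Differentiated root cells typically carry abundant transcripts for wall-modifying and secreted proteins, membrane transporters and specialised sulfur and nitrogen metabolism, and how much of an mRNA is present at a given hour depends on both its synthesis and its decay.

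The authors' signals are linear intensities scaled to the same trimmed mean on every array, and array medians ran from 75.8 to 109.9. The hybridisation controls, foreign transcripts added before hybridisation, were brighter on 1 array of each time point (0 h replicate 1, 2 h replicate 2 and 6 h replicate 2; geometric means 6000 to 13624, against 1780 to 2798 on the others). The ratio of 3′ to 5′ probe sets for actin, a sign of RNA length, was 1.40 and 2.22 at 0 h, 1.37 and 2.98 at 2 h, then 3.84 and 4.48 at 6 h. For GAPDH it was 2.68 and 5.78 at 0 h, 3.93 and 4.73 at 2 h, then 3.42 and 4.37 at 6 h. For ubiquitin it was 5.99 and 8.31, then 6.13 and 9.71, then 8.81 and 10.7. The actin ratio was thus higher on both 6 h arrays than on the other 4. The other ratios overlapped between 6 h and earlier arrays. The part of RNA length in the falls described here was not tested. The median difference from 0 h to 6 h over the 184 was −4.07 within the 3 brighter arrays and −3.93 within the 3 dimmer ones (log2), on the arrays that the selection used. Single genes differed more between these subsets, such as AT5G27410 with −1.07 and −3.83.

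As a group, the progressive fallers were abundant at the start and dim at the end. The conditions on the 0 h signal and on both steps favoured this, so the values of this paragraph are a description. Their median signal was 1069 and 1076 on the 0 h arrays, 310 and 262 on the 2 h arrays, and 63.5 and 60.1 on the 6 h arrays (replicate 1 first, as in all values below). Summed, they took 5.54% and 4.56% of all signal at 0 h, 1.42% and 1.204% at 2 h, then 0.248% and 0.234% at 6 h. They included 2 of the 10 brightest and 42 of the 500 brightest probe sets at 0 h. The median step was −1.82 from 0 h to 2 h (range −4.41 to −1.205) and −2.15 from 2 h to 6 h (−7.69 to −1.22), which gave a median of −3.95 in all (−10.51 to −2.45). Over all probe sets the same medians were −0.23, 0.11 and −0.15, and over the 7573 with a mean 0 h signal of at least 200 they were −0.24, −0.12 and −0.43. On the log2(signal + 5) scale 89 of the 184 fell at least 16-fold and 16 at least 64-fold. For 47, both 6 h signals were under 5% of the lower 0 h signal.

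**Figure D1:**
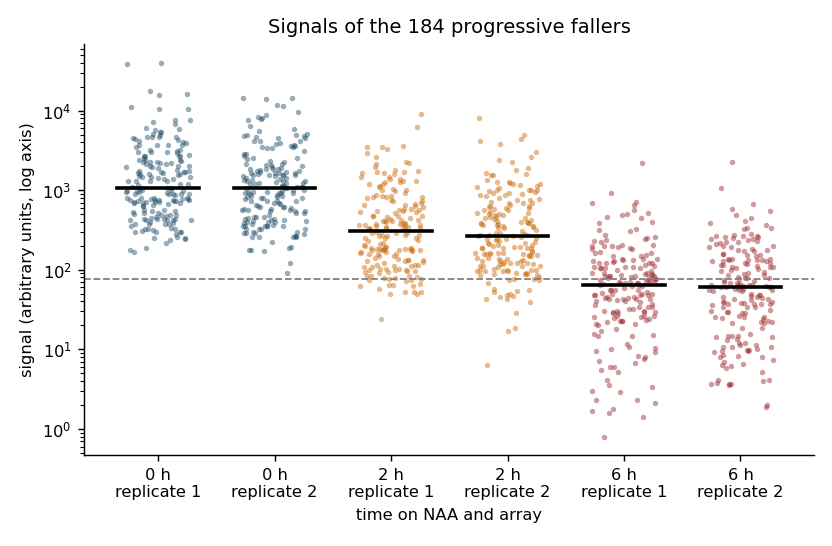
Signals of the 184 progressive fallers on each of the 6 arrays (log axis, arbitrary units), 1 point per probe set, with the median as a black bar. The dashed line at 76.7 is the 95th percentile of probe sets called absent on the array of 2 h replicate 1, and the medians go from 1069 and 1076 at 0 h to 63.5 and 60.1 at 6 h, below that line.

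Declines in 2 steps without overlap were common among bright probe sets, and the size of both steps set these apart. Of the 7573 bright probe sets, 1228 (16.2%) had both later signals below both earlier ones at each step, and 189 (2.5%) also met the size condition at both. Over all 22746, 6 h lay below 0 h without overlap for 30.1%. In the limma fit across all arrays and 13647 probe sets that passed a filter on low values, 180 of the 184 could be tested. Lower at 2 h than at 0 h were 125 of these 180, against 4.12% of all tested. From 2 h to 6 h 123 of 180 were called lower against 5.59%, and from 0 h to 6 h 180 of 180 against 17.0%. The selection used the same contrasts, so these counts are a description and carry no support of their own.

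At 6 h a large part of the group had signals in the range of probe sets that were called absent on a 2 h array. On the array of 2 h replicate 1, for which the authors deposited detection calls, 172 of the 184 were called present, 1 marginal and 11 absent, against 54.8% present over all probe sets. The selection used the signals of this array and a mean 0 h signal of at least 200. It thereby favoured present calls, and the contrast with all probe sets is a description. Absent probe sets of that array had a median signal of 17.5 and a 95th percentile of 76.7. The percentile is no detection limit, since members below it were called both ways there: AT3G19370 was present at 53.0 and XTH21 absent at 52.7. No calls were used for the 6 h arrays. None of the 184 had both 0 h signals below 76.7, which the condition on the mean 0 h signal ensured. Both 2 h signals were below it for 11, and both 6 h signals for 95. For 22, both 6 h signals were below the median of absent probe sets. For such genes the size of the second step rests on values near background, and the pseudocount of 5 understates it. Replicates also lay farther apart at the end: the median absolute difference between the replicates of a progressive faller was 0.49, 0.48 and 0.64 at the 3 time points in order (log2), against 0.46, 0.32 and 0.35 for all bright probe sets.

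Timing within the group is described with the limit that the selection asked for at least 1.2 in each step, which keeps shares away from both ends. By 2 h, the median progressive faller had covered 47.3% of its log2 fall, with a range of 22.3% to 74.5%. For 149 the share was between 35% and 65%, for 28 it was lower and for 7 higher. The second step was the larger for 106, but it had 4 h in place of 2 h, and per hour the fall was faster over the first 2 h for 162 of 184 (median 0.909 per hour against 0.537, log2). Read as a constant rate, a 2-fold drop took 66.0 min in the first interval (27.2 to 99.6 min) and 112 min in the second (31.2 to 197 min). The selection caps these times at about the longest values given, and by its unequal intervals it also favours a faster first interval, so the contrast is a description. They are apparent times on the log2(signal + 5) scale between 3 time points, and synthesis and decay were not measured.

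**Figure D2:**
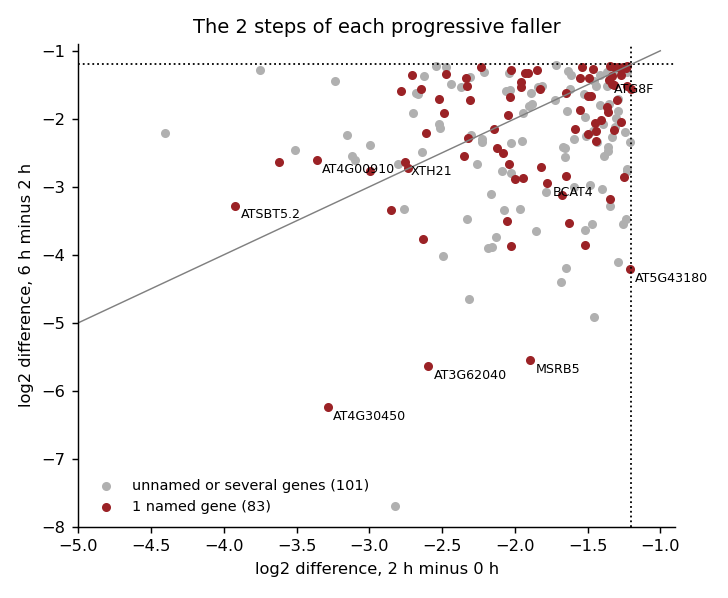
Difference from 0 h to 2 h (horizontal) against that from 2 h to 6 h (vertical), both on the log2(signal + 5) scale, for each progressive faller, with the 83 probe sets of 1 named gene in red. Dotted lines mark the condition of −1.2 on each step and the grey line marks equal steps; AT4G30450, AT3G62040 and MSRB5 have second steps beyond −5.5.

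**Figure D3:**
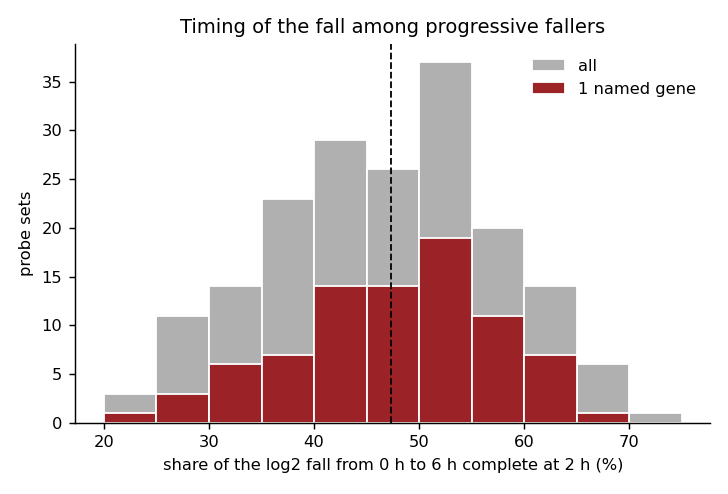
Number of progressive fallers by the share of their log2 fall from 0 h to 6 h that was complete at 2 h, for all 184 (grey) and for the 83 with 1 named gene (red, drawn over the grey). The dashed line is the median of all, 47.3%, and 149 of 184 lie between 35% and 65%.

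Genes named below are the 30 named ones with the largest fall from 0 h to 6 h, and others of the 82 that were picked for their role after their values were seen. The genes are taken here by role, starting with secreted proteins, and the order says nothing of how common a role is. AT4G30450, which encodes a glycine-rich protein, had the largest fall of any named gene, with signals of 10475 and 8147 at 0 h, 1399.6 and 634.0 at 2 h, then 7.1 and 7.9 at 6 h. That is −3.29 and then −6.24, or −9.53 in all (log2). Its neighbour on chromosome 4, the glycine-rich protein gene AT4G30460, went from 1561.7 and 2305.7 through 670.8 and 424.7 to 58.5 and 101.6. Both neighbours dropped, as the selection required of each, but by different amounts, AT4G30460 by 4.53 in all. ATSBT5.2, a subtilase (a secreted serine protease), had the largest first step of the named genes: 2126 and 2521 at 0 h, 108.0 and 202.1 at 2 h, then 10.7 and 10.8 at 6 h.

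Lipid transfer type proteins, small secreted carriers of lipids, included the brightest named member. AT1G48750 ranked 7th of all probe sets at 0 h, with 40068 and 13835, and went to 3462 and 4149 at 2 h and to 221.3 and 336.2 at 6 h (−6.41 in all). Its 0 h replicates were far apart. AT3G18280 had 2686.5 and 1667.9 at 0 h, 262.3 and 390.1 at 2 h, then 80.9 and 181.1 at 6 h. With 66.5% of its log2 fall complete by 2 h, it was the earliest of the named genes. AT2G44300 started at 2026 and 617.4 and ended at 73.7 and 134.4. AT3G53980, of the same type, narrowly failed the condition on the first step: it had 21092 and 13803 at 0 h, 6568 and 8481 at 2 h, then 43.2 and 526.8 at 6 h, with steps of −1.19 and −5.54.

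Genes with roles in the cell wall fell to differing end levels. XTH21, a xyloglucan endotransglucosylase/hydrolase that cuts and rejoins xyloglucan chains, had 490.0 and 455.0 at 0 h, 52.7 and 81.5 at 2 h, then 2.1 and 13.2 at 6 h. TBL38, of a family that acetylates wall polysaccharides, went from 1315.5 and 739.1 to 171.0 and 121.1 and then to 20.6 and 14.7. Pectin lyase-like proteins were represented by AT5G19730 (1625 and 1217.5, then 338.1 and 337.7, then 70.3 and 33.8), by AT1G02460 (669.6 and 323.0 at 0 h, 9.3 and 21.6 at 6 h) and by AT3G61490 (736.8 and 674.7 at 0 h, 55.3 and 67.9 at 6 h). All 3 covered between 43.4% and 57.3% of their fall by 2 h. AT4G11190, a dirigent protein (a family that guides the coupling of phenolic radicals), had 686.2 and 255.7 at 0 h, 64.2 and 98.8 at 2 h, then 2.3 and 36.5 at 6 h. The glycoside hydrolase gene AT1G78060 ended higher, at 182.1 and 132.9 from 2382.5 and 1400.6.

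A pair of methionine sulfoxide reductases, enzymes that repair oxidised methionine in proteins, were among the progressive fallers. MSRB5 had 16318 and 5527 at 0 h, 3592.5 and 1807.6 at 2 h, then 62.8 and 38.6 at 6 h. Its second step, −5.55, was nearly 3 times its first, −1.90, on the log2 scale. MSRB9 showed the opposite order, with 1671.6 and 1545.3 at 0 h, 249.2 and 397.8 at 2 h, then 68.0 and 194.5 at 6 h, or −2.33 and then −1.41. MSRB3 and MSRB6, the other 2 of this family that are named here, were much dimmer at 0 h (170.8 to 333.9) and changed by −1.42 and −1.95 from 0 h to 6 h (limma, adjusted p = 0.0389 and 0.00239). MSRB3, MSRB5 and MSRB6 lie close together in the genome and are similar in sequence, so their probe sets may share target.

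Other sulfur and methionine genes were in the group. APS4, an ATP sulfurylase that activates sulfate for reduction, had 4160 and 4545 at 0 h, 1767.9 and 1888.4 at 2 h, then 227.6 and 267.5 at 6 h, with replicates close together throughout. MGL is methionine gamma-lyase, which breaks methionine down. It was dim for this group from the start, with 176.4 and 403.7, then 148.7 and 45.5, then 1.8 and 3.6. BCAT4, an aminotransferase that starts the lengthening of methionine for glucosinolate synthesis, went from 4221 and 1087.6 to 461.6 and 837.5 and then to 43.6 and 130.6. GTR2, a transporter that carries glucosinolates into cells, had 888.9 and 372.6 at 0 h, 201.7 and 160.8 at 2 h, then 34.0 and 12 at 6 h. Glucosinolates are defence compounds of the cabbage family, of which methionine-derived ones carry sulfur from both methionine and assimilated sulfate.

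Few relatives of these genes are named here, and 17.0% of the 13647 tested probe sets were called lower from 0 h to 6 h. All lists of relatives of progressive fallers were added after the members were seen, so their counts are not independent evidence. Of 22 genes listed for synthesis, control and transport of methionine-derived glucosinolates, 5 are named here and 3 of those are not progressive fallers. GTR1 and UGT74B1 were lower at 6 h than at 0 h in limma, with −2.53 (adjusted p = 0.000444) and −2.84 (adjusted p = 0.000547). The left-out UGT gene AT2G31790 (−3.71) met the conditions on the values. Its fall was thus fixed by the selection and is given without a test. GTR1 is the close relative of GTR2. It still had 2101 and 1187 at 2 h, against 2408.5 and 2580.8 at 0 h, and was called lower from 2 h to 6 h (−1.87, adjusted p = 0.00954) but not from 0 h to 2 h (−0.66, adjusted p = 0.293). UGT74B1 did the reverse, with −2.15 (adjusted p = 0.00896) and then −0.68 (adjusted p = 0.383). Of 15 sulfate uptake and assimilation genes 3 are named, and beside APS4 the paralog APS3 (−1.65, adjusted p = 0.0024) and the sulfite reductase SIR (−1.92, adjusted p = 0.00244) fell from 0 h to 6 h. Neither was called from 0 h to 2 h. Whether these relatives differ from the progressive fallers was not tested.

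Leucine breakdown was also represented. IVD, isovaleryl-CoA dehydrogenase, an early step of that pathway, had 898.0 and 723.2 at 0 h, 452.1 and 241.7 at 2 h, then 147.0 and 122.3 at 6 h, one of the smallest falls of the group at −2.54. Of 8 genes listed for breakdown of branched-chain amino acids and methionine 5 are named, and the 3 beside IVD and MGL were each called lower at 6 h than at 0 h, as were 17.0% of all tested probe sets. MCCA and MCCB, the subunits of the next enzyme of leucine breakdown, dropped early: MCCB had 1796.3 and 1235.7 at 0 h, 500.7 and 236.5 at 2 h, then 400.2 and 315.7 at 6 h, with −2.10 in the first step (adjusted p = 0.00655) and 0.04 in the second (adjusted p = 0.962). For MCCA the steps were −2.15 (adjusted p = 0.0141) and −0.48 (adjusted p = 0.592). AT2G26800, a hydroxymethylglutaryl-CoA lyase at the end of the pathway, fell by 0.99 in all (adjusted p = 0.0246).

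**Figure D4:**
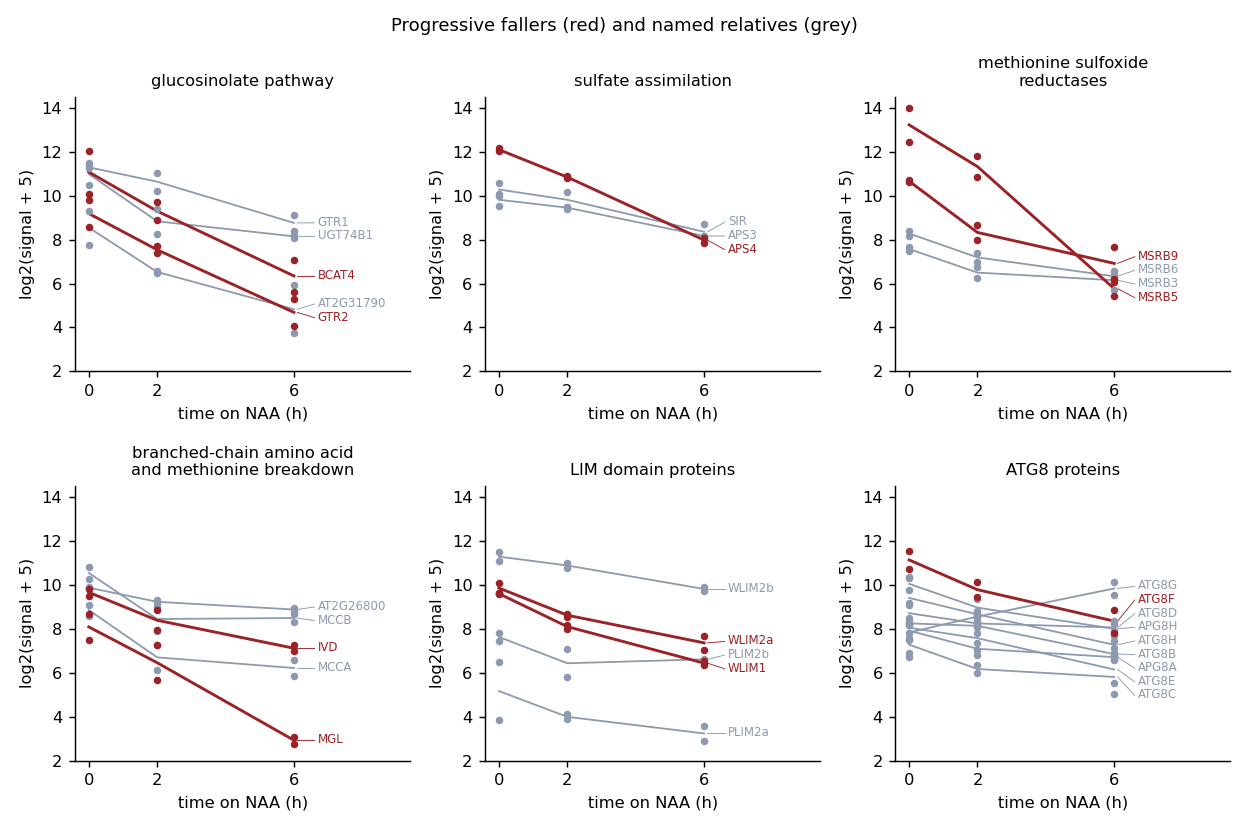
Level on the log2(signal + 5) scale against time on NAA for progressive fallers (red) and the other named genes of 6 lists (grey); points are arrays and lines join the means of 2 arrays. MSRB5 and MGL drop most steeply from 2 h to 6 h, MCCB is level over the same interval, and ATG8G is the 1 gene shown that rises from 0 h to 6 h in limma.

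Transporters and membrane proteins were found both within the 30 and below them. AT4G00910, of the aluminium-activated malate transporter family of anion channels, had 714.4 and 693.4 at 0 h, 83.7 and 48.5 at 2 h, then 3.6 and 9.9 at 6 h. AT2G40460, of the family that holds the nitrate and peptide transporters, went from 523.6 and 424.1 through 112.3 and 96.5 to 22.6 and 9.8, and AT3G01350 of the same family from 416.1 and 325.6 to 6.0 and 68.7. GTR2 belongs to that family too. AT1G63010, a vacuolar phosphate transporter, had 1366.4 and 1133.6 at 0 h, 347.5 and 138.3 at 2 h, then 89.3 and 78.1 at 6 h, with 64.8% of its fall complete by 2 h. Putative membrane proteins with no known function included AT5G10580 (6787 and 4846 at 0 h, 574.2 and 371.5 at 2 h, 88.4 and 55.7 at 6 h), AT5G43180 and AT4G31330. These 3 differed in timing: AT5G10580 and AT4G31330 had covered 57.9% and 56.5% of their fall by 2 h, and AT5G43180, with 1760.4 and 3509.1, then 1459.2 and 786.9, then 51.6 and 54.8, had covered 22.3%, the lowest share of all 184. AT1G49470 went from 3710 and 1890 at 0 h to 428.8 and 250.6 at 2 h and to 29.8 and 63.7 at 6 h.

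Several metabolic enzymes were in the group. AT1G62660, a vacuolar invertase that splits sucrose, had 389.2 and 626.5 at 0 h, 132.7 and 99.6 at 2 h, then 5.2 and 5.9 at 6 h. AT5G51970, a sorbitol dehydrogenase, started higher, at 3461 and 3402, and had 840.3 and 563.7 at 2 h and 270.6 and 156.5 at 6 h. Phosphatase-like proteins of the haloacid dehalogenase superfamily were present more than once. AT3G62040 had 4357 and 5031, then 1200.6 and 493.9, then 11.8 and 9.5. At 6 h AT1G04040 had 7.5 and 73.6, and AT2G32150 had 500.6 and 262.4. AT1G04040 had discordant replicates at 0 h, 373.4 and 2093, and its fall was −2.27 within the brighter arrays and −7.39 within the dimmer ones, so its size is poorly known. AT1G06640, of the 2-oxoglutarate and iron dependent oxygenases, had 1695.9 and 1622.9 at 0 h, 552.7 and 597.7 at 2 h, then 73.1 and 15.7 at 6 h. The cytochrome P450 gene CYP71B37 had 484.1 and 279.8, then 96.8 and 87.5, then 1.6 and 21.8, and a relative, CYP71B28, met the step conditions at −1.91 and −2.02 but was too dim at 0 h (mean 181.8).

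Oxidases, regulators and stress proteins followed. AT1G31710, a copper amine oxidase that degrades polyamines, had 1154.8 and 1436.8 at 0 h, 349.0 and 457.6 at 2 h, then 29.9 and 57.0 at 6 h. A second probe set for it was much dimmer, at 46.3 and 87.9, 33.4 and 42.7, and 4.6 and 12.2, and lay outside the group, with a total of −2.43 against −4.797. AT1G31050, a basic helix-loop-helix transcription factor, is the 1 named gene with both its probe sets in the group. The brighter had 4651 and 2555.5 at 0 h, 1455.6 and 507.8 at 2 h, then 128.0 and 97.1 at 6 h, and the dimmer 498.5 and 438.7, 212.6 and 150.7, and 42.9 and 46.2. Their totals were −4.89 and −3.25, and the order of time points was the same, as the selection required of each. AT3G11930, a universal stress protein, went from 3649 and 3663 through 1628.9 and 490.6 to 86.5 and 36.7. Levels were 2996 and 2709, 1807.8 and 689.7, and 81.2 and 171.2 for ZW9, a protein with a TRAF-like domain. AT2G21560 (491.8 and 422.1 at 0 h) and AT5G01740 (698.2 and 781.7) ended at 0.8 and 1.9 and at 10.0 and 36.6.

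**Figure D5:**
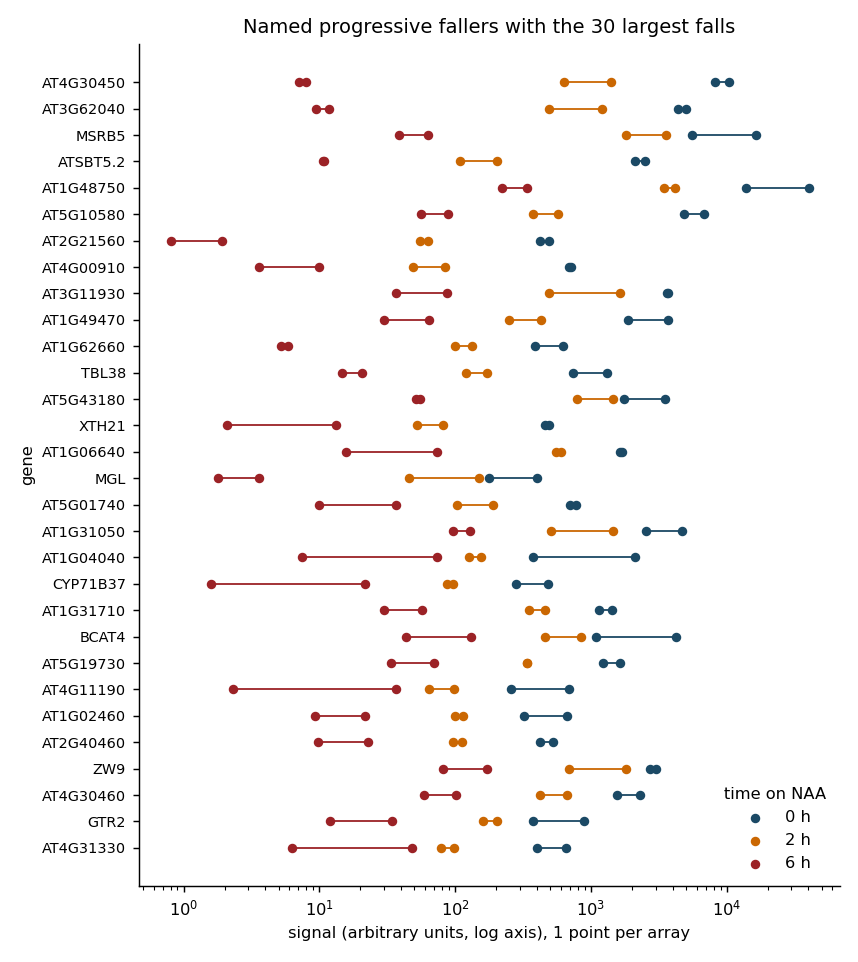
Signals on each array (log axis, arbitrary units) of the 30 named progressive fallers with the largest fall, in order of the fall from the top, with the 2 arrays of a time point joined by a line. The time points do not overlap for any gene, as the selection required, and the 0 h pair of AT1G04040 (373.4 and 2093) is among the widest.

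Cytoskeletal and autophagy genes sat at the shallow end of the group. WLIM1 and WLIM2a, LIM domain proteins that bundle actin filaments, went from 753.3 and 791.1 to 252.3 and 288.3 and then 76.8 and 87.4, and from 788.5 and 1078.3 to 369.7 and 409.1 and then 126.9 and 200.7. Their totals were −3.16 and −2.49. Of the 6 listed genes of this family 5 are named and 4 were tested, and WLIM2b fell by 1.47 from 0 h to 6 h (adjusted p = 0.00387), while PLIM2b, at −1.01, was not called (adjusted p = 0.138). ATMAP65-6, a protein that binds microtubules, had 979.2 and 511.3 at 0 h, 269.8 and 280.1 at 2 h, then 98.2 and 135.0 at 6 h, and its second step of −1.22 was among the closest to the condition. ATG8F, a ubiquitin-like protein attached to autophagosome membranes, had 3017 and 1673.8, then 1118.8 and 685.3, then 464.7 and 222.8.

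The ATG8 family did not move as one. All 9 of its listed genes were tested, and of the 8 beside ATG8F 4 were lower at 6 h than at 0 h: APG8A with −1.21 (adjusted p = 0.0421), ATG8B with −1.40 (0.0124), ATG8H with −2.13 (0.00673) and APG8H with −2.05 (0.0021), against 17.0% of all tested probe sets called lower. ATG8G rose by 2.00 (adjusted p = 0.00197), where 16.8% of all tested probe sets were called higher. Its signals were 281.2 and 177.1 at 0 h, 451.2 and 306.5 at 2 h, then 1129.8 and 733.7 at 6 h, without overlap. ATG8C, ATG8D and ATG8E were not called, with −1.47, −0.65 and −1.90. In the XTH family, 6 of 14 listed genes are named and 4 were tested. XTH20 fell by 2.34 (adjusted p = 0.000596), nearly all of it after 2 h, while XTH18 and XTH19 were not called and had 6 h replicates that differed several-fold (227.3 and 1355.3 for XTH18).

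The unnamed probe sets held the largest fall of all. One of them had 15708 and 14504 at 0 h, 3337 and 1360.1 at 2 h, then 2.9 and 8.6 at 6 h, or −10.51. Another, with 38532 and 14229 at 0 h, 9120 and 8015.5 at 2 h, then 189.3 and 405.7 at 6 h, was the other member among the 10 brightest at 0 h. Both were singled out after their values were seen. Without the unnamed and the shared probe sets, the median fall of the remaining 83 was −3.74, against −3.95 for all 184.

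The conditions cut through a continuum. Just inside the first step lay AT1G20380 (−1.205) and AT5G43180 (−1.21), and just outside it AT3G53980 (−1.19). On the second step ATMAP65-6 and AT5G27410 were inside (−1.22 each) and AT3G30390 outside (−1.18, with −1.41 in its first step). AT5G64180 had the lowest mean 0 h signal of the group, 209.4, from replicates of 328.0 and 90.8, and is 1 of the 4 that the filter on low values removed.

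The group was set beside 357 other bright fallers, probe sets that lost at least 2.4 from 0 h to 6 h without overlap and with a mean 0 h signal of at least 200 but did not meet the 2-step conditions. Their median of mean signals was 714.9 against 1197 at 0 h, 291.6 against 279.5 at 2 h, and 77.9 against 57.9 at 6 h, values that the selection itself used. Gene length, position and probe set type were not used. Gene spans in the TAIR10.1 annotation had a median of 2197 bp for the 82 named genes, 2058 bp for the 149 named probe sets among the other fallers and 2105 bp for all named genes. Chromosome 1 held 29 of the 82 genes (35.4%), against 22.1% of the other bright fallers and 25.7% of all named genes. These shares were not tested. Probe sets designed to match more than 1 transcript made up 6.52% of the progressive fallers, 5.04% of the other bright fallers and 4.66% of all. Besides AT4G30450 and AT4G30460, the closest named genes were GTR2 and AT5G62720, 4 genes apart on chromosome 5.

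Genes from 14 lists of neighbouring tissues and other functions were measured beside these, and none of the few that are named here is a progressive faller (6 of the 14 lists have no named gene). Of 7 endodermis markers 2 are named, the receptor kinase GSO1 and the kinase gene AT1G61590, both of the pathway that seals the Casparian strip. Their summed signal was 1240 and 1518 at 0 h, 995.2 and 2108 at 2 h, then 140.8 and 90.4 at 6 h. GSO1 was not called from 0 h to 2 h (0.21, adjusted p = 0.831) and fell by 4.04 from 2 h to 6 h (adjusted p = 0.000591), and AT1G61590 did likewise (−0.08, adjusted p = 0.923, then −3.18, adjusted p = 0.000498). At 6 h they were low together with the progressive fallers and at 2 h they were not, and their part in the result was not tested. The named cortex markers (2 of 3), epidermis and root hair markers (2 of 7) and phloem marker (1 of 4) were dim throughout, with summed signals of 62.3 to 173.7, 35.3 to 156.4 and 41.3 to 119.9, and none of the 3 that were tested was called in any comparison. Xylem and root cap markers are unnamed here. HCT, an enzyme of the lignin pathway, fell by 3.00 from 0 h to 6 h (adjusted p = 0.000131), and its first step of −1.01 was not called (adjusted p = 0.104). SIM, which inhibits cyclin-dependent kinases, had −2.52 (adjusted p = 0.00467) from 0 h to 6 h and −2.65 from 2 h to 6 h (adjusted p = 0.0117), the latter no longer called without either 2 h array or 6 h replicate 1. COR47, a dehydrin, fell by 1.202 (adjusted p = 0.0321), a call that was lost without either 2 h array, 0 h replicate 2 or 6 h replicate 1, with no filter on low values, and in a fit of only the 4 arrays compared.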

How the data were processed

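The authors deposited MAS5 signal intensities, 1 per probe set, per the submitters' processing notes, which give no version. Each array had a mean of 250.0 after trimming 2% at each end. For 2 h replicate 1 the authors also deposited detection p-values and calls, used as a description, and its signals were the same as in the series table. Arrays have no read depth, so their number limits the precision.

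The authors' scaling was kept, and all values were taken to log2(signal + 5). After removal of 64 controls from 22810 probe sets, the 13647 with a mean above the 40th percentile entered 1 fit of all 6 arrays with limma 3.58.1 in R 4.3.3 (lmFit, and eBayes with an intensity trend; 3 residual and 8.26 prior degrees of freedom). A call is a Benjamini-Hochberg adjusted p under 0.05 over all tested. All adjusted p-values come from this fit, which was first tested on simulated data. With 2 arrays a group, p-values rest on the spread pooled over the groups.

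Gene names came from a table of the array's probe sets: 13513 have 1 gene, 503 several and 8730 none here. Of the 13513, 13436 matched a locus of TAIR10.1, which was used for names, spans and gene order. The members, the 14 gene lists and the naming rule were chosen with earlier results of these data known. A further 7 lists (glucosinolate, sulfate, methionine sulfoxide reductase, amino acid breakdown, LIM domain, ATG8 and XTH genes) were added after the members were seen, so their counts are not independent evidence. The naming rule took the 30 genes with the largest fall, up to 4 called genes per list, and probe sets nearest the conditions. Other members, picked for their role, and further listed genes were named after their values were seen. The lists of ion transport, sugar starvation, auxin transport, pericycle, xylem and root cap genes had 0 named genes and are not analysed here. COR15A, the 2nd of 2 named dehydration genes, and AT1G08180, a 2nd inhibitor of cyclin-dependent kinases, lay below the filter.

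Alternatives were other pseudocounts, filters, normalizations, eBayes settings and conditions, a replicate or hybridisation control block, and each array left out. Same-numbered arrays did not clearly deviate together (correlations of 0.057, 0.105 and 0.153), so the numbers were not used as pairs. Protein and promoter sequences were not used here.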

Additional observations from a re-analysis of the deposited data

How the results depend on the processing

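The number of progressive fallers was 289 and 98 with a condition of 1.0 or 1.5 on each step, 203 and 159 with a mean 0 h signal of at least 100 or 400, 194 and 145 with a pseudocount 4 times smaller or larger, and 83 when only probe sets with 1 named gene were kept. Quantile normalization gave 196, of which 172 are among the 184, and centring on the median gave 140, of which 122 are. Without 1 array it ranged from 165 to 217. The median fall from 0 h to 6 h was −3.58 with a pseudocount of 20, and −4.06 to −3.95 without 1 array. None of the 83 named values changed direction under any alternative. The selection largely fixed this in advance, since it allowed no overlap between time points on the same arrays. Of the values of single members, 862 stayed within the spread between replicates and 134 moved, most within the brighter or dimmer arrays alone.

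For calls across all probe sets, 2 h versus 0 h had 1553 (976 by eBayes without the trend), 6 h versus 2 h 1190 and 6 h versus 0 h 4612. Without 1 array these ranged from 463 to 1542, from 497 to 1722 and from 3039 to 4460. The lowest counts came without a 2 h array for the first (646 without replicate 1, 463 without replicate 2), without a 2 h or 6 h array for the second (497, 537, 614 and 531), and without 6 h replicate 1 for the third. With the replicate number as a block there were 2038, 1662 and 5106 calls, while blocking on hybridisation control brightness gave 1242, 904 and 4296. Median centring left 240 lower of 1360 calls at 2 h, against 562 of 1553, and 1726 lower of 4048 at 6 h versus 0 h. Among listed genes 383 values kept their side of the threshold, 11 calls were lost and 2 were gained; 14 values that were not called changed sign, and no called one did. Gained were HCT from 0 h to 2 h with the replicate number as a block (adjusted p = 0.0250) and the cortex marker AT1G09750 from 0 h to 6 h by eBayes without the trend (adjusted p = 0.0492). The lost ones were COR47 from 0 h to 6 h (adjusted p 0.0580 to 0.283) and HCT and SIM from 2 h to 6 h (0.0758 to 0.0796, and 0.0771 to 0.102). The causes were not tested. Planned comparisons of promoter and protein features were not run, since they need sequences not used here.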
